A study of Arabidopsis thaliana with 18 samples.

Results

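The transcriptional response of whole Arabidopsis thaliana seedlings labelled ire1b to tunicamycin (TM) was measured by RNA-seq in 6 of the 18 libraries of the series, 3 with TM and 3 with DMSO, the solvent given as control. The 6 libraries were taken by their genotype and treatment labels, and all genes were examined. Seedlings were 7 days old, had grown on vertical plates of 1/2 MS medium, and were moved to liquid 1/2 MS medium with sucrose in 6-well plates for 6 h with DMSO or with 5 µg/mL TM. The other 12 libraries, 3 for each treatment, were labelled WT or ire1a1b, a genotype whose label names both genes. All 18 entered the fit and so share in the estimate of the spread behind each call, and the WT libraries also served to test where the ire1b response differed. The labels name no ire1b allele and no accession background, and they do not say how many seedlings went into a library or whether replicates were separate cultures. The p-values therefore measure the spread between these libraries, which may be technical.

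Tunicamycin blocks the first step of N-glycan assembly, so that newly made glycoproteins misfold in the endoplasmic reticulum (ER). Plant cells answer with the unfolded protein response, in which the ER membrane kinase and ribonuclease IRE1 splices the mRNA of the transcription factor BZIP60 and the membrane-held factor BZIP28 is cut free in the Golgi. Both factors are known to switch on ER chaperones through promoter elements called ERSE and UPRE. Arabidopsis encodes the IRE1 paralogs IRE1A and IRE1B.

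IRE1B, the gene named in the label, had 37.6, 37.8 and 47.2 CPM (each count as a share of its library's total after TMM scaling) in the DMSO libraries labelled ire1b and 35.5, 39.6 and 39.8 in the TM libraries. The WT libraries lay between 28 and 36.7 CPM, so the libraries labelled ire1b were not lower in this gene. A count over the whole gene does not show an insertion or a point mutation, and the genotype could not be checked with it. IRE1B did not pass the test between TM and DMSO (log2 fold change -0.09 ± 0.11 SE, adjusted p = 0.65), nor did IRE1A (0.10 ± 0.07, adjusted p = 0.34), which stood at 89.2, 92.8 and 97.3 CPM in DMSO and 99.9, 96.7 and 103 CPM in TM. Adjusted p-values are from edgeR's quasi-likelihood test with Benjamini-Hochberg adjustment over all tested genes throughout.

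The 6 libraries held 16347549 to 23872187 gene counts. In a principal component analysis of these libraries, the first component held 75.8% of the variance and parted TM from DMSO. The second held 10.5% and set both replicate 3 libraries apart from replicates 1 and 2, and replicate libraries compared by chi-square gave 2.725 and 2.96 per degree of freedom for replicates 1 and 2 but 6.613 to 11.49 for pairs with replicate 3. Counts of genes are therefore also given without replicate 3 where that moved them by more than 1.5 times, an alternative chosen after the data were seen.

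At 6 h of TM, 4639 of the 20615 tested genes (22.5%) were called at an adjusted p below 0.05. Of these, 2252 rose (10.9%) and 2387 fell (11.6%). The median log2 fold change over all tested genes was -0.01. Rises were fewer among moderate changes and more numerous at the extreme: 555 risen and 891 fallen genes changed more than 2-fold, 213 and 203 more than 4-fold, and 30 and 14 more than 16-fold. The last class includes genes near the floor, such as AT2G03040 and AT1G75600, with 0 and 3 counts in total in DMSO. The folds of such genes are uncertain. Of the risen genes, 2244 had no TM library at or below a DMSO library, and of the fallen genes 2362 had none at or above. With 3 libraries against 3, a call leaves little room for overlap, so these counts are no separate evidence. The share without overlap among all tested genes is not given here. Risen genes together held 109994 CPM in DMSO and 218985 CPM in TM, while fallen genes went from 133919 to 80596 CPM. With the replicate number as a block within each genotype, 3734 genes rose and 4127 fell, including 2249 and 2379 of those above. Without replicate 3, 1394 rose and 1332 fell.

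**Figure D1:**
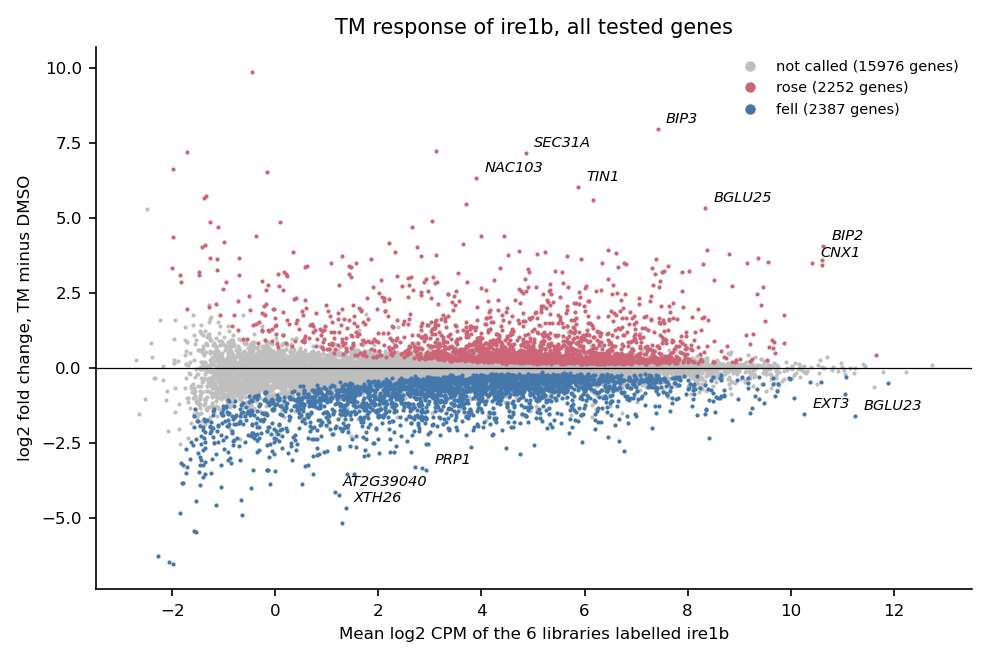
Log2 fold change (TM minus DMSO) against mean log2 CPM of the 6 libraries labelled ire1b, 1 point per tested gene, with genes that rose in red, genes that fell in blue and the rest in grey. The labelled gene farthest above 0 is BIP3 at 7.94, and 30 risen and 14 fallen genes lie beyond 16-fold.

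Leaving aside genes of low level (under 2 in mean log2 CPM over all 18 libraries), the largest rise was that of BIP3 (AT1G09080), the stress-inducible paralog of the ER Hsp70 chaperone BiP. Its CPM was 13.3, 15.2 and 5.39 in DMSO and 2850, 2632 and 2947 in TM. Replicate 3 was the lowest DMSO library and the highest TM library, and the groups lay far apart. The fold change was 246 (log2 7.94 ± 0.34, adjusted p = 7.6e-11). SEC31A (AT1G18830), a WD40 repeat protein of the family that builds the outer COPII coat of ER vesicles, rose from 2.85, 3.27 and 1.25 CPM to 361, 339 and 367 CPM (141-fold, adjusted p = 4.1e-11). NAC103 (AT5G64060), a transcription factor of the unfolded protein response, went from 1.48, 1.85 and 1.5 CPM to 134, 118 and 137 CPM, which was 79.8-fold (log2 6.32 ± 0.15, adjusted p = 1.7e-13). This rank took only called genes whose TM and DMSO libraries did not overlap, so that separation was set by the choice of genes. The other genes in this rank were TIN1, annotated as tunicamycin induced (65.5-fold), the ER DnaJ cochaperone ATERDJ3A (48.1-fold), the AAA-ATPase AATP1 (43.9-fold), the beta-glucosidase BGLU25 (40.3-fold), the UDP-glycosyltransferase AT3G55700 (29.6-fold), the Sec61-beta translocon protein AT3G60540 (21.3-fold), the protein kinase SNRK2-8 (21.1-fold), the cation channel CNGC19 (log2 4.14) and BIP2 (16.7-fold). SARA1A, described with ER to Golgi transport, rose 149-fold but was under that limit on level.

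**Figure D2:**
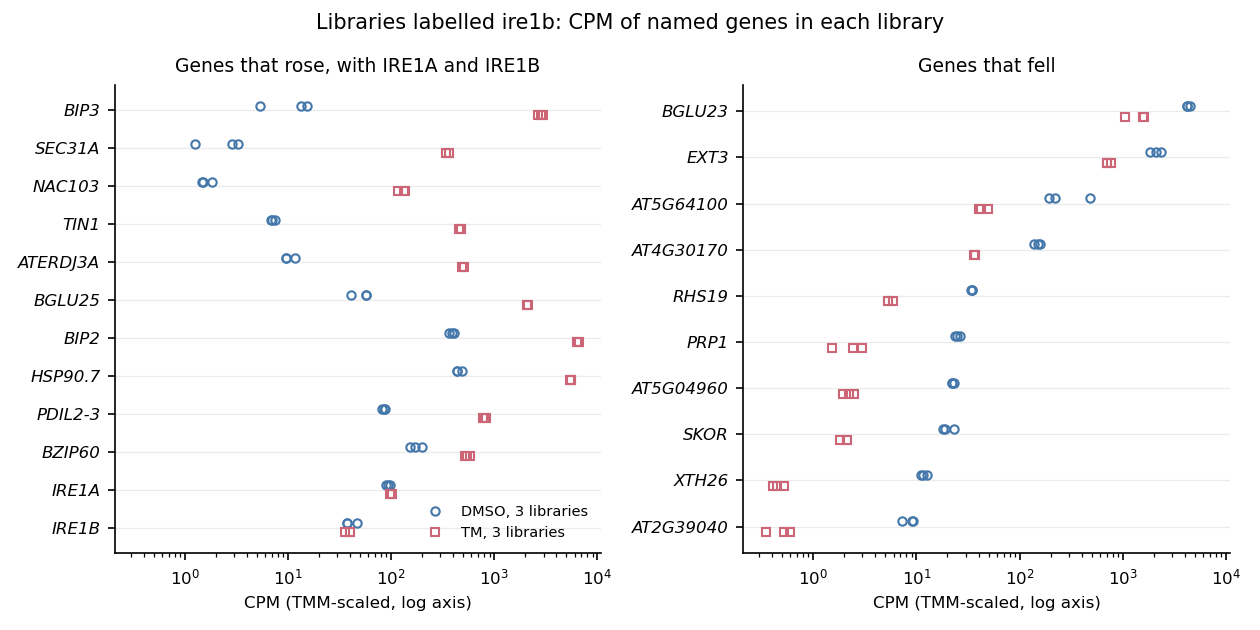
CPM on a log axis in each of the 3 DMSO (blue circles) and 3 TM (red squares) libraries labelled ire1b, for genes that rose with IRE1A and IRE1B on the left and genes that fell on the right. The TM and DMSO points are apart for each gene shown except IRE1A and IRE1B. Genes chosen by size of change had to be apart. On the log axis replicates lie farthest apart in DMSO for BIP3, SEC31A and AT5G64100, followed by PRP1 in TM.

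The genes named for their size or certainty of rise were searched for ERSE-I (CCAAT, any 10 bases, CACG), ERSE-II (ATTGG, any base, CCACG) and the UPRE octamer TGACGTGG, on both strands of the 250 bases before the annotated start of the gene. More of these genes lacked ERSE-I than held it, and BIP1, BIP2, CNX1, CRT1b, SEC31A, NAC103 and ATERDJ3A had none. ERSE-I was found in 7 of the genes searched. Their promoters are shown because the same element recurred in them at various distances and in both orientations. They are, on TAIR10.1 from RefSeq, BIP3 (chr1:2931851-2932100, minus strand), AT3G60540 (chr3:22375917-22376166, minus), HSP90.7 (chr4:12556059-12556308, minus), AT4G16660 (chr4:9376449-9376698, plus), AT3G51980 (chr3:19287553-19287802, minus), ARFA1D (chr1:26565866-26566115, minus) and UTR3 (chr1:4913168-4913417, minus). Each reads 5′ to 3′ toward the gene, and capitals mark the fixed letters of ERSE-I and the UPRE octamer, which read CGTG then ATTGG, or CCACGTCA, where the match is on the other strand.
BIP3: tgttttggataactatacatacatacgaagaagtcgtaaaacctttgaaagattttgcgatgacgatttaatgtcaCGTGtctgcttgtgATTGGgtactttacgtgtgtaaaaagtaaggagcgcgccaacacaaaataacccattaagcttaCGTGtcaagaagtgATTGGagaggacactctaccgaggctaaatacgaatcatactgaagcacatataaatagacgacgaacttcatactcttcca
AT3G60540: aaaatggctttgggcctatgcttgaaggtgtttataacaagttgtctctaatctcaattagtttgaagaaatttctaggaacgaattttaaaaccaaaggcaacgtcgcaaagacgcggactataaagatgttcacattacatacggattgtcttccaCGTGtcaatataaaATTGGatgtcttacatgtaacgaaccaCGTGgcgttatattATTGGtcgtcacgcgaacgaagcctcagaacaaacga
HSP90.7: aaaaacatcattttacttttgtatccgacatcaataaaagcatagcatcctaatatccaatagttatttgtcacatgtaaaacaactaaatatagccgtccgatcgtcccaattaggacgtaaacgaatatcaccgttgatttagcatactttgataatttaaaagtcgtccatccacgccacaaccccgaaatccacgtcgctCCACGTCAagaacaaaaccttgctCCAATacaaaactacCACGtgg
AT4G16660: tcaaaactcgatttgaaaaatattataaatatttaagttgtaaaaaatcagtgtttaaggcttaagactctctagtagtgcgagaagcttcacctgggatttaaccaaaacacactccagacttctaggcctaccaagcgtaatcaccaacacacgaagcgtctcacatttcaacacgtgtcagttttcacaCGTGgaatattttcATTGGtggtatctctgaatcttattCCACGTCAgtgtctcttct
AT3G51980: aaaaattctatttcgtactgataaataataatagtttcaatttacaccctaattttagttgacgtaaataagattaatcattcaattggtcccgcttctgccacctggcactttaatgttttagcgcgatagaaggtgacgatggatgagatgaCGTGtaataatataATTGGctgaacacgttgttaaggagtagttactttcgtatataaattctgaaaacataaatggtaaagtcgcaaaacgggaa
ARFA1D: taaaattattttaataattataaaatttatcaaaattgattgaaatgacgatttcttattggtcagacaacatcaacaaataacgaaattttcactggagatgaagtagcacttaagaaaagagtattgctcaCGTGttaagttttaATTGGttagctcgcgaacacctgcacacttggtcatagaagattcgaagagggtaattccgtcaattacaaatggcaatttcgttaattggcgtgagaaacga
UTR3: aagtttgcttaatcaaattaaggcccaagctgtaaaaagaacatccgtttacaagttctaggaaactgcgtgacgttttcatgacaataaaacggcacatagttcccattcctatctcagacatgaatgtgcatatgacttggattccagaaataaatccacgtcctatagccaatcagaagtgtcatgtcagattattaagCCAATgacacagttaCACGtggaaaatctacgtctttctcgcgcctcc
BIP3 and AT3G60540 each held 2 copies of ERSE-I. HSP90.7 and AT4G16660 held 1 ERSE-I and 1 UPRE octamer each. The copies lay between base -174 of BIP3 and base -4 of HSP90.7, counting back from base -1, the last before the start.

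Across all genes, ERSE-I was found in 79 of the 2250 risen genes whose 250 bases could be read (3.51%), in 4 of 2386 fallen genes (0.168%) and in 173 of 20492 tested genes (0.844%). Among genes that rose more than 4-fold it was in 24 of 211 (11.4%), and among those that fell more than 4-fold in 0 of 203. Some of the 24 were near the floor, such as AT2G03040 and AT3G22100, with 0 and 3 counts in total in DMSO. Read the other way, 79 of the 173 holders rose (45.7%), 4 fell and 90 did not pass, with a median log2 fold change of 0.28 beside -0.01 in the genes without it. Among the 79 holders that rose, those that also stood in the ER lists included the disulfide isomerases PDIL1-2 and PDIL1-1, the ubiquitin ligase Hrd1B and its partner HRD3A, the cochaperone P58IPK, the calreticulin CRT1a, the glycoprotein-folding sensor UGGT and the cell-death suppressor BI1. Others, such as the ubiquitin gene UBQ11 and the tubulin gene TUA6, are not known for a role in the ER, and how many of the holders act there was not counted. The UPRE octamer was in 61 risen genes (2.71%), 15 fallen genes (0.629%) and 310 tested genes (1.51%), and 14 of the 22 tested genes with both the octamer and ERSE-I rose while 0 fell. TIN1 had 2 octamers and no ERSE-I. ERSE-II was in 2 risen genes and 15 tested genes. The UPRE-III hexamer TCATCG was in 5.91% of risen, 5.95% of fallen and 6.38% of tested genes. A match describes these letters in this window and not a bound site.

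**Figure D3:**
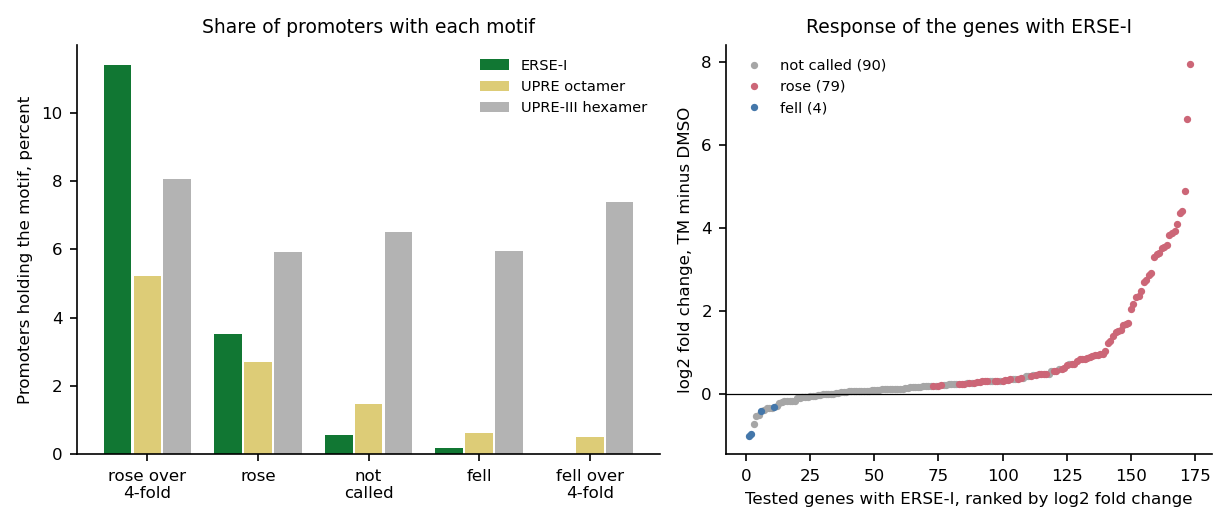
Left, percent of promoters (250 bases before the start) holding ERSE-I, the UPRE octamer or the UPRE-III hexamer, by response of the gene. Right, log2 fold changes (TM minus DMSO) of the 173 tested genes with ERSE-I in rank order. The ERSE-I share is 11.4% in genes that rose more than 4-fold and 0.568% in genes not called, while the hexamer share lies between 5.91% and 8.06% in all 5 classes.

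Gene lists here and below were chosen with earlier results of these data known, so their shares are descriptive. All 9 ER Hsp70 and Hsp90 chaperones and cochaperones in the list rose, with a median log2 fold change of 3.51. Their summed CPM was 1620, 1792 and 1688 in DMSO and 23892, 23644 and 24433 in TM, 14.1 times higher. BIP2, a constitutively made BiP, had 366, 407 and 389 CPM in DMSO and 6354, 6442 and 6645 CPM in TM (adjusted p = 2.7e-12). BIP1, its near-identical paralog, had 449, 499 and 475 CPM in DMSO and 5023, 5058 and 5118 in TM (10.7-fold). The sources used here do not give how reads shared by BIP1 and BIP2 were assigned, and the split between them is uncertain. HSP90.7, the ER Hsp90, rose 12.1-fold from 436, 489 and 432 CPM to 5513, 5485 and 5366. The smallest rise in the list was that of P58IPK, at log2 2.76 (adjusted p = 4.5e-12). AT3G51980, an ARM repeat protein in the annotation and not a list member, had the smallest p-value of all risen genes: its CPM was 25.3, 26 and 26.8 in DMSO and 364, 370 and 367 in TM (14.1-fold, adjusted p = 2.9e-14).

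The lectin chaperones for glycoproteins split. Among 9 genes of the calnexin and calreticulin cycle, 5 rose and 2 fell, with a median log2 fold change of 1.70. The rises were those of calreticulin CRT1b (12.6-fold, from 188, 194 and 174 to 2319, 2265 and 2418 CPM), the calnexin-like AT5G07340 (12.5-fold), calnexin CNX1 (11.3-fold), calreticulin CRT1a (5.57-fold) and UGGT (3.25-fold), which re-marks misfolded glycoproteins for another folding round. CRT3, a plant-type calreticulin, and glucosidase GCS1, which trims the outermost glucose, fell by 0.37 and 0.44 on the log2 scale, and without replicate 3 neither passed. The glucosidase II subunits RSW3 (log2 0.06, adjusted p = 0.59) and PSL4 (0.03, adjusted p = 0.75) did not pass.

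Of 15 protein disulfide isomerases and ERO1 oxidases, which form and reshuffle disulfide bonds, 7 rose and 0 fell. PDIL1-2 (85.1, 90.3 and 81.9 CPM in DMSO; 1288, 1304 and 1311 in TM), the oxidase ERO1 (8.44, 8.3 and 10.3; 128, 120 and 130) and PDIL2-2 (30.7, 34.6 and 35.6; 376, 365 and 384) rose most, 15.2-fold, 14-fold and 11.1-fold. PDIL2-3 rose 9.43-fold with an adjusted p of 2.9e-14. The 8 members that did not pass lay between log2 -0.18 (PDIL5-4) and 0.28 (PDIL5-1), with ERO2 at -0.13 (adjusted p = 0.42), so the median of the whole list was only 0.28 although 7 members rose at least 2.23 on the log2 scale. With the replicate block 8 rose and 1 fell. Of 30 tested genes whose protein ends in the ER retention signal HDEL or KDEL, 13 rose (43.3%) and 4 fell (13.3%). The share of falls was near the 11.6% of all tested genes. The fallen ones included the ER body beta-glucosidases BGLU23 and BGLU22.

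ER-associated degradation, which draws misfolded proteins back to the cytosol, had 10 of 12 tested members risen and 0 fallen (median log2 fold change 1.99). The ubiquitin ligase Hrd1B had 60.7, 59.8 and 59.9 CPM in DMSO and 643, 585 and 682 in TM (10.6-fold, adjusted p = 2.7e-13). Its paralog Hrd1A had 19.9, 21.7 and 23.3 CPM in DMSO and 22.3, 21.7 and 20.9 in TM, overlapping groups that did not pass. The substrate lectin OS9 rose 6.44-fold and the channel protein DER1 5.89-fold, whereas the cytosolic segregase CDC48A was at log2 0.28 (adjusted p = 0.042, a call lost when any of the 6 libraries was left out). Downstream, 30 of 40 tested subunits of the 26S proteasome rose and 0 fell, all by small steps: the largest were PBB2 (log2 0.78 ± 0.07, adjusted p = 1.1e-06), AT1G04810 (0.70) and RPT5B (0.63). Their summed CPM went from 3672, 3683 and 3728 to 4475, 4518 and 4545, 1.22 times higher. Without replicate 3, 15 of them rose.

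Of the machinery for entry into the ER, 12 of 20 tested genes for the signal recognition particle, the Sec61 translocon and signal peptidase rose and 0 fell. The Sec61-beta gene AT3G60540 went from 3.53, 3.7 and 2.88 CPM to 73.6, 67.4 and 76.1. The Sec61-alpha gene AT1G29310 (a SecY family protein in the annotation) rose 8.87-fold and the Sec63 homologue ATERDJ2B 6.07-fold. The signal recognition particle subunit AT1G48900 did not pass (log2 0.16, adjusted p = 0.073). In N-glycan synthesis, the pathway that TM inhibits, 5 of 16 tested genes rose and 0 fell (median 0.08). The largest rise there was that of GPT (AT2G41490), which encodes the UDP-GlcNAc dolichol phosphate transferase blocked by TM, from 19, 18.5 and 16.4 CPM to 73.2, 74 and 77.4 (4.16-fold, adjusted p = 1.8e-10). The oligosaccharyltransferase subunits STT3A (2.1-fold) and OST3/6 (2.06-fold) also rose, while the alternative catalytic subunit STT3B did not pass (log2 -0.14, adjusted p = 0.076; with the replicate block it fell, adjusted p = 0.031). The block gave 6 rises and 2 falls in this list.

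Of 37 tested genes for transport between ER and Golgi, 23 rose and 0 fell. The small GTPase SARA1A, of the family that starts the COPII coat, had 0.95, 0.854 and 0.251 CPM in DMSO and 107, 101 and 111 CPM in TM (149-fold, adjusted p = 3e-12). The coatomer beta-prime gene AT3G15980 rose 14-fold, from 116, 124 and 116 CPM to 1720, 1613 and 1662 CPM. The p24 family gene AT2G03040 had 0 counts in all DMSO libraries and 35 counts in total with TM, so no fold is given. The list's median log2 fold change was 0.40, far below these genes. ARFA1D, a small GTPase of the ARF family that is not in the list, rose 11.7-fold.

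Among 13 tested regulators of the unfolded protein response, 7 rose and 0 fell. BZIP60 had 154, 171 and 198 CPM in DMSO and 520, 545 and 586 CPM in TM (3.15-fold, log2 1.66 ± 0.28, adjusted p = 0.00052). These are counts over the whole gene and do not separate spliced from unspliced mRNA. BZIP28 rose 2.5-fold and its relative BZIP17 did not pass (log2 0.21, adjusted p = 0.076; 0.01 with the replicate block). The membrane-bound factors NAC089 and NAC062 rose 5.56-fold and 3.69-fold, and BI1 rose 7.59-fold from 119, 136 and 145 CPM to 974, 988 and 1065. In the NAC family as a whole 21 of 81 tested members rose and 7 fell (3 fell without replicate 3, 11 with the replicate block). Besides NAC103, NAC094 rose 10.5-fold, and NAC095 went from a total of 1 count with DMSO to 75 counts with TM. The WRKY family went the other way, with 4 of 64 risen and 17 fallen (10 fallen without replicate 3). WRKY30 dropped from 9.29, 11.3 and 12 CPM to 1.38, 2.3 and 0.872 (adjusted p = 6.2e-05), WRKY60 fell by 1.66 on the log2 scale, and WRKY50 rose 7.89-fold.

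Of 27 tested autophagy genes, 2 rose: the cargo receptor NBR1 (480, 487 and 555 CPM in DMSO; 1692, 1630 and 1910 in TM; 3.44-fold) and ATG8D (3.69-fold). In this main fit, that share of 7.41% was below the 10.9% of all tested genes that rose. With the replicate block, 8 of the autophagy genes rose and 2 fell. The share of rises was then above that of all tested genes (3734 of 20615). Several of the strongest risers lay outside the secretory lists. BGLU25 had 56.8, 57 and 40.7 CPM in DMSO and 2104, 2065 and 2056 CPM in TM. AATP1, used here as a member of the mitochondrial retrograde list, went from 1.64, 1.85 and 2.32 CPM to 83.5, 75 and 95.1, while the other 7 tested members did not pass (2 members rose with the block), with the alternative oxidase AOX1A at log2 -0.13 (adjusted p = 0.88). SNRK2-8 had 5.22, 4.03 and 4.77 CPM in DMSO and 106, 91.3 and 99 CPM in TM (adjusted p = 5.2e-06). The RING finger gene AT4G32670 rose 9.23-fold, AT4G34630 13.2-fold and the nucleotide-sugar transporter UTR3 10.4-fold, each with standard errors of 0.07 to 0.09 on the log2 scale.

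**Figure D4:**
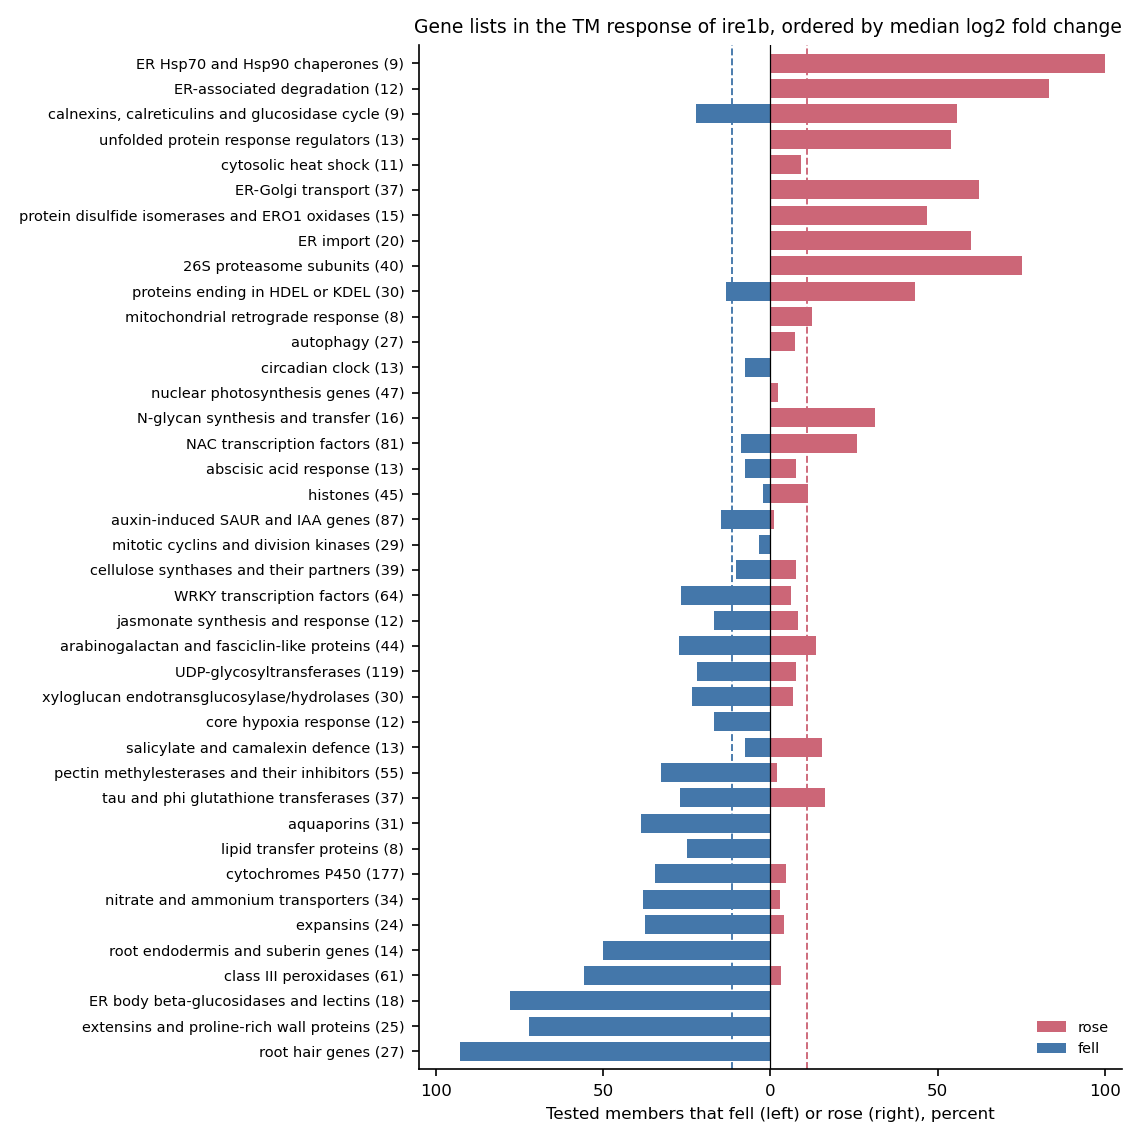
Percent of tested members that rose (red, right) or fell (blue, left) in each gene list, ordered by the median log2 fold change, with the number of tested members in brackets and dashed lines at the shares of all tested genes, 10.9% and 11.6%. Lists of ER folding, degradation and transport stand at the top, and root hair, extensin, ER body and peroxidase lists at the bottom.

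Root hair, ER body and extensin genes held the largest shares of falls among the lists. The lists were chosen with earlier results of these data known, so these shares are descriptive. Of 27 tested root hair genes, 25 fell (21 without replicate 3) and 0 rose, against 11.6% of all tested genes, with a median log2 fold change of -1.57. Their summed CPM was 283, 278 and 276 in DMSO and 96, 103 and 97 in TM. RHS19, a root hair peroxidase, had 34.8, 33.5 and 34.6 CPM in DMSO and 5.32, 5.95 and 5.29 CPM in TM (6.21-fold lower, adjusted p = 8.1e-10). PRP1, a proline-rich wall protein made in root hairs, went from 24.7, 26.4 and 23.7 CPM to 2.98, 2.45 and 1.51 (10.6-fold lower), and G3Pp2 was 9.31-fold lower. The transcription factor RHD6, which starts hair formation, fell by 1.10 on the log2 scale (adjusted p = 0.0068). Its target RSL4 fell by 0.70 (adjusted p = 0.047) but did not pass without replicate 3. Of 14 endodermis and suberin genes, 7 fell and 0 rose (12 fell with the replicate block), led by the Casparian strip genes CASP4 (6.29-fold lower), PER64 and CASP2, while the suberin acyltransferase ASFT was at log2 0.06 (adjusted p = 0.9). The summed CPM of this list was 127 to 130 in DMSO and 76 to 86 in TM.

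Green shoot markers, the nuclear photosynthesis genes, held 22033 to 26351 summed CPM in DMSO and 23353 to 29208 in TM, overlapping ranges. Each TM library was above the DMSO library of its number (28435 against 25515, 29208 against 26351 and 23353 against 22033), and 41 of the 47 members had positive log2 fold changes, with 1 member called (LHB1B1, log2 1.13, adjusted p = 0.004) and a median of 0.08. With the replicate block 7 rose. In whole seedlings, fewer cells of a type and less RNA per cell cannot be told apart, and the part of the root to shoot balance in the falls was not tested.

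Extensins and proline-rich wall proteins, which cross-link in the wall, had 18 of 25 tested members fallen and 0 risen (median -1.08). EXT3 went from 1843, 2093 and 2319 CPM to 700, 763 and 709 CPM (adjusted p = 3.2e-05), and the root extensins AT5G06630 and EXT6 were 3.92-fold and 3.86-fold lower. The summed CPM of the list was 5169 to 6397 in DMSO and 2513 to 2975 in TM. Class III peroxidases, secreted enzymes that stiffen or loosen the wall, had 34 of 61 tested members fallen and 2 risen (median -0.83). AT2G39040 had 7.18, 9.35 and 9.03 CPM in DMSO and 0.346, 0.6 and 0.523 CPM in TM, a fall of log2 -4.12 (adjusted p = 1.7e-09). AT5G64100 went from 191, 220 and 480 CPM to 41.8, 49 and 40.4 CPM, and its DMSO replicate 3 was more than 2-fold above the other DMSO libraries. The risen peroxidases were AT4G36430 (3.48-fold) and AT3G21770 (1.74-fold).

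Wall-modifying enzymes were more mixed. The 30 tested xyloglucan endotransglucosylase/hydrolases gave 7 falls and 2 rises (7 and 1 without replicate 3). XTH26, expressed in root hairs, had the smallest p-value of all fallen genes and was 25.2-fold lower, from 11.7, 11.1 and 12.7 CPM to 0.519, 0.45 and 0.407 CPM (adjusted p = 2.5e-11). XTH13 was 11.5-fold lower and XTH12 4.35-fold lower. Of 24 expansins, which loosen walls, 9 fell and 1 rose (6 and 0 without replicate 3), and the fallen ones included the root hair expansin EXPA7 (3.1-fold lower). With the replicate block 11 xyloglucan enzymes, 15 expansins and 31 pectin methylesterases or inhibitors fell, and 2, 2 and 2 rose. Of 55 pectin methylesterases and their inhibitors, 18 fell (8 without replicate 3) and 1 rose. AT5G04960, 10.1-fold lower, went from 22.2, 22.2 and 22.9 CPM to 2.46, 1.95 and 2.21, and AT5G62340 was 7.4-fold lower, whereas PME1 rose 2.15-fold. Of 44 arabinogalactan and fasciclin-like proteins, 12 fell and 6 rose (7 and 3 without replicate 3, 19 and 8 with the block), with AGP30 18.5-fold lower and FLA12 3.32-fold higher. Of 39 cellulose synthases and partners, 4 fell and 3 rose (15 and 7 with the replicate block, 3 and 1 without replicate 3), led by ATCSLB05 (14.3-fold lower) and KOB1 (2.71-fold higher), a plasma membrane protein needed for cellulose deposition. The main-fit shares in this last list, 10.3% fallen and 7.69% risen, were no higher than the 11.6% and 10.9% of all tested genes. With the replicate block, its share of falls was above that of all tested genes (4127 of 20615). Its share of rises was not (3734 of 20615).

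ER bodies are ER-derived compartments of seedlings and roots that store beta-glucosidases for defence. Of 18 genes listed for their contents, formation and associated lectins, 14 fell and 0 rose (median -1.05), whereas the listed ER chaperones rose. The beta-glucosidase BGLU25, which is not in this list, rose 40.3-fold. BGLU23, the main ER body enzyme, had the largest loss of CPM among fallen genes whose groups did not overlap, from 4181, 4431 and 4202 to 1573, 1613 and 1046 (3.03-fold lower, adjusted p = 5.6e-06). GLL22, a GDSL lipase-like protein, BGLU21 and BGLU22 were 5.54-fold, 4.88-fold and 3.7-fold lower. BGLU21 and BGLU22 are close copies whose shared reads may have been split or left out. NAI2, needed to form the bodies, went from 520, 574 and 481 CPM to 227, 233 and 160, and the regulator NAI1 fell by 1.03 on the log2 scale. In BGLU21, BGLU22, BGLU23, GLL22 and NAI2 alike the TM library of replicate 3 was the lowest. The jacalin lectin JAL35 did not pass (log2 -0.36, adjusted p = 0.13; 0.00084 with the replicate block).

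Falls outnumbered rises among water and nutrient transport genes, though most of these genes did not pass. Of the tested members, 38.7% of aquaporins and 38.2% of nitrate and ammonium transporters fell, against 11.6% of all tested genes. Of 31 aquaporins, 12 fell and 0 rose (median -0.38), led by NLM1 (4.93-fold lower), TIP4;1 (9.18, 8.82 and 9.34 CPM in DMSO; 2.16, 2.3 and 2.21 in TM) and PIP1A (2.72-fold lower). Of 34 nitrate, ammonium and related transporters, 13 fell and 1 rose (21 and 1 with the replicate block). AMT1;3, a root ammonium transporter, was 3.9-fold lower, and the nitrate transporter and sensor NRT1.1 was 1.81-fold lower (384, 377 and 358 CPM in DMSO; 204, 226 and 189 in TM). PTR4 rose 1.98-fold. Single genes with large falls were SKOR, a potassium channel that loads the xylem (18, 19.1 and 23.1 CPM in DMSO; 1.82, 2.15 and 2.15 in TM; 9.84-fold lower), the zinc transporter ZIP3 (6.92-fold lower) and the ferric reductase FRO4 (6.86-fold lower). By loss of CPM the fallen genes further included the ABC transporter PEN3, the arginine decarboxylase ADC2, the glutamine synthetase GSR2, the lectin AT3G16530 and EXT4. Each of these 5 lost its call without replicate 3 (adjusted p = 0.083, 0.057, 0.054, 0.091 and 0.14).

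In the families of secondary and detoxifying metabolism the falls outnumbered the rises. The fallen shares were 34.5% of cytochromes P450, 21.8% of UDP-glycosyltransferases and 27% of glutathione transferases, against 11.6% of all tested genes. Of 177 tested cytochromes P450, 61 fell and 8 rose (39 and 7 without replicate 3, 95 and 13 with the block), and the median log2 fold change was -0.42. CYP702A5 was 5.59-fold lower, CYP718 was 6.65-fold lower and CYP94D1 went from a total of 54 counts with DMSO to 1 with TM, whereas CYP81F3 rose 7.56-fold and CYP712A1 6.31-fold. Of 119 UDP-glycosyltransferases, 26 fell and 9 rose (17 and 7 without replicate 3, 45 and 16 with the block), with UGT72E2 4.67-fold lower and AT3G55700 at 1.32, 1.8 and 1.25 CPM in DMSO and 42.5, 45.7 and 43.3 CPM in TM. Of 37 glutathione transferases of the tau and phi classes, 10 fell and 6 rose (16 and 8 with the block): GSTU14 was 20.9-fold lower, and GSTU22 rose 12.3-fold from 14.7, 19.6 and 18 CPM to 196, 215 and 232.

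In the main fit, other stress and growth lists had shares of called genes near or below those of all tested genes. With the replicate block, 3734 of all 20615 tested genes rose and 4127 fell, and some of these lists held larger shares. Of 11 cytosolic heat shock genes, HSC70-1 rose (1.34-fold), and 10 had positive log2 fold changes with a median of 0.65. With the replicate block 7 rose. Of 13 salicylate and camalexin genes, 2 rose (SAG101 2.22-fold and EDS1 1.37-fold) and 1 fell (ICS1, 2.17-fold lower), and EDS1 and ICS1 did not pass without replicate 3, which left 1 rise and 0 falls. The camalexin gene PAD3 did not pass (141, 174 and 270 CPM in DMSO; 74.8, 84.8 and 109 in TM; adjusted p = 0.31, and 0.016 with the block), and 7 of these genes fell with the block. Jasmonate genes gave 1 rise and 2 falls of 12 (1 and 4 with the block, 0 and 2 without replicate 3). Abscisic acid genes gave 1 rise (RD29B, 8.18-fold) and 1 fall of 13 (3 and 2 with the block). Core hypoxia genes gave 2 falls of 12 (6 with the block, 1 without replicate 3). Of 13 clock genes ELF4 fell (1.9-fold lower), and 4 rose and 4 fell with the block. Of 87 SAUR and IAA genes, 13 fell and 1 rose (7 and 1 without replicate 3, 22 and 4 with the block). Of 29 mitotic cyclins and division kinases 1 fell (7 with the block, 0 without replicate 3), of 8 lipid transfer protein genes 2 fell (0 without replicate 3, 6 with the block), and of 45 histones 5 rose and 1 fell (6 and 5 with the block, 3 and 1 without replicate 3), where the H3-type gene AT1G75600 went from 3 counts in total with DMSO to 331 with TM.

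The TM response of ire1b differed from that of WT in 855 genes (4.15% of those tested): in 525 the log2 fold change was higher in ire1b and in 330 lower. With the replicate block 2467 genes differed, and without replicate 3 of ire1b 534 did. On the second component of all 18 libraries, 4 libraries stood apart, those numbered 1 of WT and of ire1a1b. When these were left out 1295 genes differed. On the first component of all 18 libraries, which held 41.6% of the variance, the TM libraries of ire1b lay at -54.1 to -47.6, those of ire1a1b at -36.5 to -32.7 and those of WT at -16.2 to -7.7, while all 9 DMSO libraries lay between 31 and 34.4. GSL04, a callose synthase-like gene, had 25.2, 25.1 and 25.3 CPM in DMSO and 178, 161 and 161 CPM in TM in ire1b, against 26.2, 25.2 and 26.7 and 28.8, 26.3 and 31.9 in WT. The ire1b TM libraries stood above all WT libraries, as did the ire1a1b TM libraries at 207, 157 and 185 CPM, and the difference between ire1b and WT was log2 2.57 ± 0.13 (adjusted p = 5.4e-08). KOB1 had 114, 115 and 121 CPM in the ire1b TM libraries and 43.1, 44 and 45.8 in those of WT (difference 1.46 ± 0.08, adjusted p = 7.9e-08). In the ire1a1b TM libraries KOB1 stood at 96.4, 93.7 and 90 CPM, also above WT. UGT71C2, a UDP-glycosyltransferase, rose 5.86-fold in ire1b and was at log2 0.59 in WT (difference 1.96 ± 0.13), with 67.5 to 85.3 CPM in the ire1a1b TM libraries, and the glutathione transferase GSTU18 differed by 2.77 ± 0.18 (adjusted p = 7e-07).

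Among genes with a lower response in ire1b, the acyltransferase AT4G15390 had 72.3, 75.9 and 88 CPM in DMSO and 13.8, 12.7 and 13.7 CPM in TM, while the WT libraries lay at 69.8 to 96.8 CPM in DMSO and 81.2 to 96.4 CPM in TM. The difference was -2.68 ± 0.25 (adjusted p = 8.1e-06), and the ire1a1b TM libraries were low as well, at 20.9, 15.3 and 13.9 CPM. Whether the response of ire1b differed from that of ire1a1b was not tested for these genes. AMT1;3 fell in ire1b and was at log2 0.43 in WT (difference -2.40 ± 0.24), the terpenoid cyclase AT3G29410 differed by -2.24 ± 0.20 and the transporter AT3G45710 by -1.82 ± 0.19. BIP3 differed by -2.15 ± 0.39 (adjusted p = 0.0036, and 0.085 with the replicate block in the ire1b and WT libraries alone). Its TM levels overlapped, at 2632 to 2947 CPM in ire1b and 2733 to 3042 in WT, and its DMSO levels did not, at 5.39 to 15.2 CPM in ire1b and 1.81 to 3.65 in WT, so the genotypes were apart in the DMSO libraries and not in the TM libraries. BZIP60 (0.28 ± 0.39, adjusted p = 0.91) and NAC103 (0.24 ± 0.21, adjusted p = 0.79) did not pass. Over all tested genes, the response was lower in ire1b in 1.6% and higher in 2.55%. By list, 12 of 25 extensins and proline-rich proteins had a lower response in ire1b and 0 a higher one, as had 5 and 0 of 27 root hair genes, 14 and 7 of 177 cytochromes P450 and 9 and 7 of 61 class III peroxidases. Some lists leaned the other way: 6 of 81 NAC factors had a higher response in ire1b and 0 a lower one. Among 44 arabinogalactan and fasciclin-like proteins these counts were 5 and 2. Of the 9 ER Hsp70 and Hsp90 chaperones only BIP3 differed, and of the 12 degradation genes and 15 disulfide isomerases and oxidases 0 did, counts too small to read against the 4.15% of all tested genes.

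**Figure D5:**
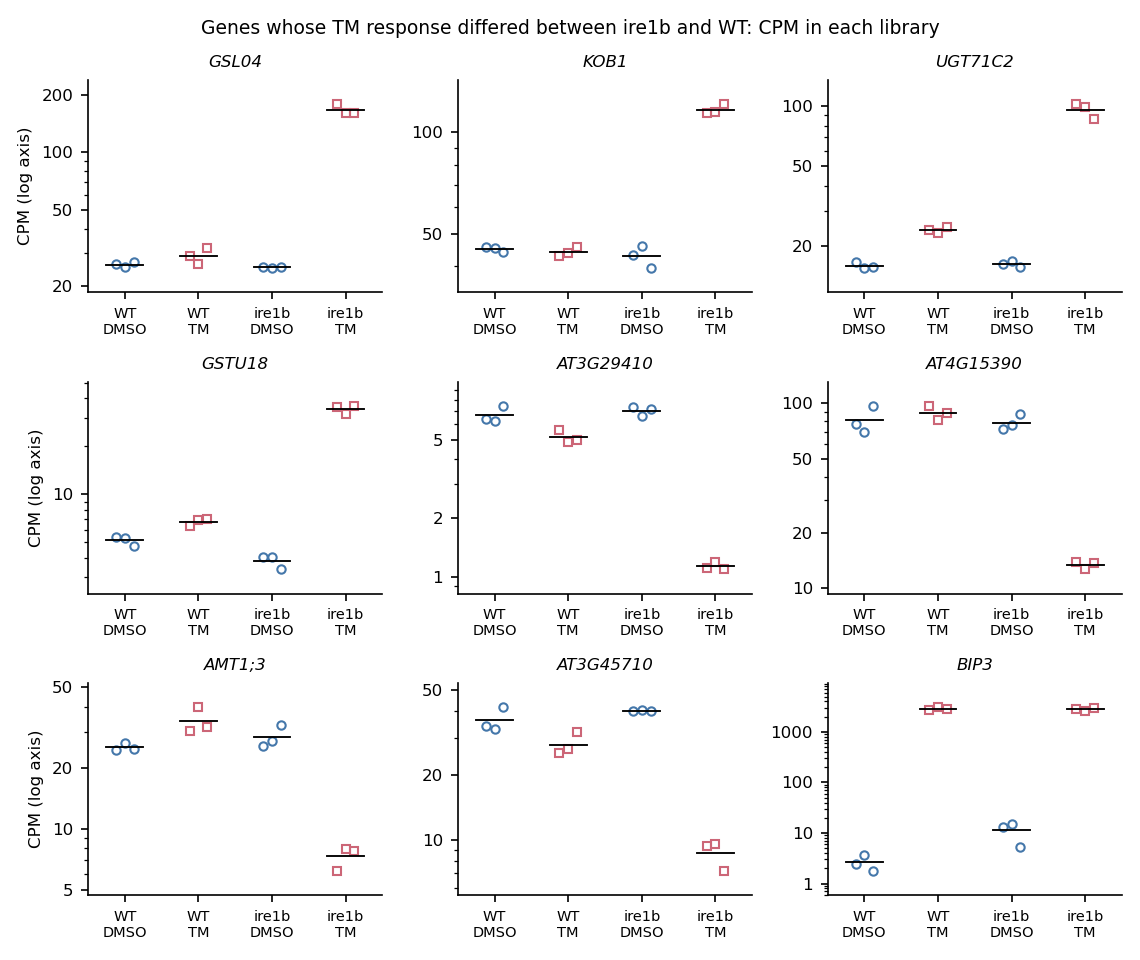
CPM on log axes in each WT and ire1b library with DMSO (blue circles) or TM (red squares), black bars marking the mean of 3 libraries, for the 4 genes per direction with the smallest p-values of the difference between ire1b and WT, and for BIP3. In the first 8 panels the ire1b TM libraries stand apart from the other 9 libraries, and in BIP3 the DMSO libraries of the genotypes are apart.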

How the data were processed

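Whole-seedling RNA was sequenced as paired-end reads of 250 nt, per the labels. Per the submitters' processing notes, STAR 2.4.0, HTSeq 0.6.0, DESeq2 and the TAIR10 build were used. The deposited values were HTSeq read counts per gene, not normalized. Counting mode and strand setting are not given in the sources used here. Between 5.928% and 6.219% of each of the 6 libraries stood in HTSeq's summary entries, which were left out. Of 27416 gene IDs, 26719 matched the TAIR10.1 RefSeq annotation.

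Counts of all 18 libraries were fitted with 1 mean per group in edgeR 4.0.16 (R 4.3.3, limma 3.58.1), with TMM scaling (factors 0.9473 to 1.066), filterByExpr (20615 genes kept, 6801 left out), the robust quasi-likelihood test and Benjamini-Hochberg adjustment, called at 0.05. The script was checked on simulated data. Depth limits genes of few counts: folds are not given where a group held 0 to 3 counts. CPM was computed here from the counts and TMM-scaled library sizes. The difference from WT was tested as an interaction.

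Same-numbered TM and DMSO libraries deviated together from their group means (correlations 0.25, 0.15 and 0.32, all above 0.1), so the title numbers were taken to pair them. A separate replicate tag in the labels runs only over 1 and 2 and conflicts with these numbers. All block counts rest on the title numbers. The main fit ignored this pairing, so every call or failure to pass given without mention of the block is from an unpaired fit. With the block within each genotype 3734 genes rose and 4127 fell, against 2252 and 2387 in the main fit. The block fit is an alternative. Others were RLE scaling, DESeq2 1.42.0, other filters, other sets of libraries, each library left out and a test against a fold change of 2.

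Members and gene lists were chosen with earlier results of these data known. Genes named were IRE1A, IRE1B, BZIP60, BIP3 and NAC103, the 12 largest folds per direction among called genes at a mean log2 CPM of at least 2 without overlap, the 10 largest CPM differences, the 8 smallest p-values, the 4 smallest p-values per direction for the difference from WT, and up to 3 members per list and direction with members that did not pass. A few members were added for their known role after their values were seen.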

Additional observations from a re-analysis of the deposited data

Results flagged for a closer look

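The TM response of ire1b differed from that of WT, tested as an interaction in edgeR, in 855 genes. The genes below are those with the smallest p-values of that difference, each given as the ire1b response minus the WT response on the log2 scale, together with BIP3. GSL04 differed by 2.57, KOB1 by 1.46, UGT71C2 by 1.96 and GSTU18 by 2.77. In each of these genes the 3 ire1b TM libraries were above all WT libraries. AT3G29410 differed by -2.24, AT4G15390 by -2.68, AMT1;3 by -2.40 and AT3G45710 by -1.82, with the 3 ire1b TM libraries below all WT libraries. BIP3 differed by -2.15, and its DMSO libraries were higher in ire1b than in WT while its TM libraries overlapped.

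For GSL04 the TM libraries labelled ire1a1b held 207, 157 and 185 CPM, near the 161 to 178 CPM of ire1b and above the 26.3 to 31.9 CPM of WT. IRE1B itself was not lower in the libraries labelled ire1b than in WT, whereas IRE1A stood at 19.9 to 24.7 CPM in the libraries labelled ire1a1b, below the 79.7 to 93.1 CPM of WT.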

How the results depend on the processing

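Pairing by a replicate block within each genotype gave 3734 risen and 4127 fallen genes and 2467 that differed from WT, and a block in the ire1b libraries alone gave 3715 and 4784 (2555 differing, with the ire1b and WT libraries). The test against a fold change of 2 left 331 risen and 268 fallen genes. Without ire1b replicate 3 in both groups, chosen after the data were seen, 1394 rose, 1332 fell and 534 differed. With the 4 libraries numbered 1 of WT and ire1a1b left out, 3349 rose, 3508 fell and 1295 differed. The ire1b libraries alone, without a block, gave 2697 risen and 3509 fallen genes. Leaving out each ire1b library in turn gave 1725 to 1860 risen, 1793 to 2035 fallen and 624 to 712 differing genes. The causes were not tested.

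Over the 65 results for named genes, 1017 of 1032 alternative values kept direction and call, 15 kept direction and lost the call, and 0 reversed. The calls lost were those of BZIP60, EXT3, ADC2, PEN3, EXT4, AT3G16530, GSR2 and EARLI1. Beyond BIP3's difference from WT and the members given in the text, the block changed no call of a named gene. Depth of 16347549 to 23872187 counts limits what can be seen in genes of few counts.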

Other observations

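In 9 places an ERSE-I lay in the 250 bases before the starts of a pair of genes read in opposite directions. Both genes were tested in 8 of these pairs. Both neighbours rose in 4 pairs, AT1G11880 with SEC22, AT1G71210 with UGGT, ATI1 with AT2G45990, and AT3G51980 with AT3G51990. A single neighbour rose in 3 pairs and neither in 1. A shared element does not show which gene it acts on.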
